A study of Mus musculus with 8 samples.

Results

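The genes of parathyroid hormone and calcium sensing *Pth*, *Gcm2*, *Chga*, *Casr*, *Kl*, *Gata3*, *Tbx1*, and *Vdr* were followed across 3 sorted populations of embryonic thymic epithelial cells (TECs). They are 8 of the 55450 genes in the deposited table and were found by gene symbol. The set was selected on measured values of these same libraries, both across the populations and within the 3 CCL21+RANK- libraries, so their levels are given as a description with no test. All 8 genes passed the expression filter of the count analysis, which kept 21451 genes. *Gcm2* was above the filter's minimum of 0.178 CPM (counts scaled to a common library size) in 3 of the 5 libraries outside CCL21+RANK- TECs, and the other 7 genes were above it in all 5.

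The study asked how TECs that express the chemokine CCL21 differ from TECs that express RANK, the receptor for the cytokine RANKL. CD45-EpCAM+ cells were sorted from the thymus of E17 mouse embryos in which tdTomato was knocked into *Ccl21a* and Venus reported *Tnfrsf11a*, the gene for RANK. All groups carry both reporters and no treatment is given. The groups were CCL21+RANK- TECs (3 libraries), CCL21-RANK+ TECs (3 libraries), and CCL21-RANK- TECs (2 libraries), hereafter CCL21+ TECs, RANK+ TECs, and reporter-negative TECs. The totals were 59677342, 46003149, and 55116934 counts in CCL21+RANK- libraries, 57286773, 50146758, and 42751858 in CCL21-RANK+ libraries, and 67451448 and 71625319 in CCL21-RANK- libraries. The reporters mark activity of the *Ccl21a* and *Tnfrsf11a* loci and do not by themselves separate TECs from other EpCAM+ cells of the region. In younger embryos the study described parathyroid cells with CCL21 next to the thymus, and epithelial cells with both *Ccl21a* and *Gcm2* transcripts. It told these apart from thymic cells by their place and their transcripts. The name TECs is used here for the sorted populations as the study uses it.

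Parathyroid hormone is secreted when blood calcium falls, and raises calcium by acting on bone and kidney. The calcium-sensing receptor on parathyroid chief cells reads extracellular calcium and restrains secretion, while active vitamin D, through its receptor, and FGF23, through Klotho and an FGF receptor, also act on the gland. The parathyroid glands and the thymus both develop from the third pharyngeal pouch, and GCM2 and GATA3 are transcription factors of the parathyroid domain.

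The sort itself was checked first. *Ccl21a* was at 560.7, 346, and 306 RPKM (counts scaled to exon length and library total) in CCL21+ libraries, 152, 95.9, and 78.2 in RANK+ libraries, and 6.89 and 8.88 in reporter-negative libraries. *Tnfrsf11a* was at 104 ± 9.37 RPKM (SD, n = 3) in RANK+ TECs, 9.496 ± 0.750 RPKM (SD, n = 3) in CCL21+ TECs, and 2.44 ± 0.258 RPKM (SD, n = 2) in reporter-negative TECs. Each gene was highest in the population named for it, but transcripts of *Ccl21a* were also present in RANK+ TECs. *Ccl21a* has near-identical copies in the mouse genome, so its counts are uncertain. The TEC markers *Epcam*, *Foxn1*, *Krt5*, *Krt8*, and *Psmb11* were present in every library.

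*Pth* and *Gcm2* are the hormone gene and the gene of the factor that specifies its cells, so the sequence at their start sites is shown, with matches to the GATA motif AGATAA in capitals. On the strand shown both matches read TTATCT. The sequence is RefSeq's, on build GRCm38.p6, written 5′ to 3′ on the strand of the gene. For *Pth* it covers the 250 bases before the start site, chr7:113388574-113388823 on the minus strand. For *Gcm2*, where GENCODE places 195 of the 250 bases in exons of the gene itself, only 30 bases around the match are given, chr13:41109986-41110015 on the minus strand, of which the last 3 lie after the start site.
Pth: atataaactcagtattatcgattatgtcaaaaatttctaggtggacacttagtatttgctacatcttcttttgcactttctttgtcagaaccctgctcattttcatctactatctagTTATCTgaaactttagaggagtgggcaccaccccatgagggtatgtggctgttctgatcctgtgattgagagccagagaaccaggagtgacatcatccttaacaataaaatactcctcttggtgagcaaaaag
Gcm2: cactcctcagctTTATCTctctttcagggc
The matches begin 133 bases before the start site of *Pth* and 15 bases before that of *Gcm2*. Windows of 300 bases (250 before and 50 after the start) were searched on both strands for AGATAA and for the GCM motif ATGCGGGT. The 8 genes have 9 such windows, since *Tbx1* has 2 start sites in the table. AGATAA was in 2 of the 9 windows, against 11.2% of all 32851 promoter windows, and ATGCGGGT was in 0 of the 9, against 0.256% of all. The *Pth* and *Gcm2* windows each hold 1 CpG and the *Casr* window holds 4, whereas the windows of *Chga*, *Kl*, *Gata3*, *Tbx1*, and *Vdr* hold between 15 and 26, where the median of all promoters is 7. A match of letters is not a site, and these sequences were read from the reference and not measured here.

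*Pth* (chromosome 7, 113385580 to 113388570) encodes the hormone. It was at 3001.5, 848, and 906 RPKM in CCL21+ libraries, at 1.89, 0.815, and 0.758 RPKM in RANK+ libraries, and at 12.4 and 8.85 RPKM in reporter-negative libraries. The groups did not overlap, and the order was CCL21+, then reporter-negative, then RANK+. The fitted log2 fold change was 10.52 ± 0.71 (SE) over RANK+ and 7.21 ± 0.73 over reporter-negative TECs. Even where it was lowest, in RANK+ TECs, it was read from 77, 29, and 23 counts. Among 21951 protein-coding genes ranked by RPKM, *Pth* was number 2, 13, and 13 in the CCL21+ libraries. In bulk libraries such as these, fewer cells of a type and less RNA per cell cannot be told apart.

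*Gcm2* (chromosome 13, 41101427 to 41111035), the transcription factor without which parathyroid glands do not form, was expressed far below the hormone. Its levels were 12.0, 4.05, and 5.05 RPKM in CCL21+ libraries, 0.122, 0.0302, and 0.0708 in RANK+ libraries, and 0.117 and 0.0127 in reporter-negative libraries. The 3 CCL21+ libraries lay above all others, and the other groups overlapped. The log2 fold changes were 6.67 ± 0.74 and 6.74 ± 0.88 (SE) over RANK+ and reporter-negative TECs, and the second was 9.11 without reporter-negative replicate 1 and 5.83 without reporter-negative replicate 2. Outside CCL21+ TECs the gene was read from 3 to 26 counts per library, and its log2 difference between RANK+ and reporter-negative TECs was 0.08 ± 0.88, or 2.44 and -0.83 without the first and the second reporter-negative library.

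*Chga* (chromosome 12, 102554969 to 102565028) encodes chromogranin A, a protein of hormone granules that is stored with parathyroid hormone. It was at 4061, 878, and 1020.3 RPKM in CCL21+ libraries, at 12.4, 2.55, and 4.06 in RANK+ libraries, and at 9.05 and 9.701 in reporter-negative libraries. Again only the CCL21+ libraries stood apart. *Chga* took 1.12%, 0.242%, and 0.281% of all counts in them and was number 1, 11, and 8 among protein-coding genes. Its log2 fold changes were 8.45 ± 0.88 over RANK+ and 7.73 ± 1.03 over reporter-negative TECs.

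Within a library, per length, *Chga* was at 1.35, 1.04, and 1.13 times the level of *Pth* in CCL21+ TECs and at 0.731 and 1.096 times in reporter-negative TECs. In RANK+ TECs it was at 6.56, 3.13, and 5.35 times the level of *Pth*. The *Chga* to *Pth* ratio was thus near 1 in the RANK- libraries and higher in each RANK+ library. Outside CCL21+ TECs the ratio rests on low levels. *Pth* had 593 and 450 counts in reporter-negative and 77, 29, and 23 in RANK+ libraries, against 127175, 27707, and 35461 in CCL21+ libraries. What sets the ratio there was not tested.

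**Figure D1:**
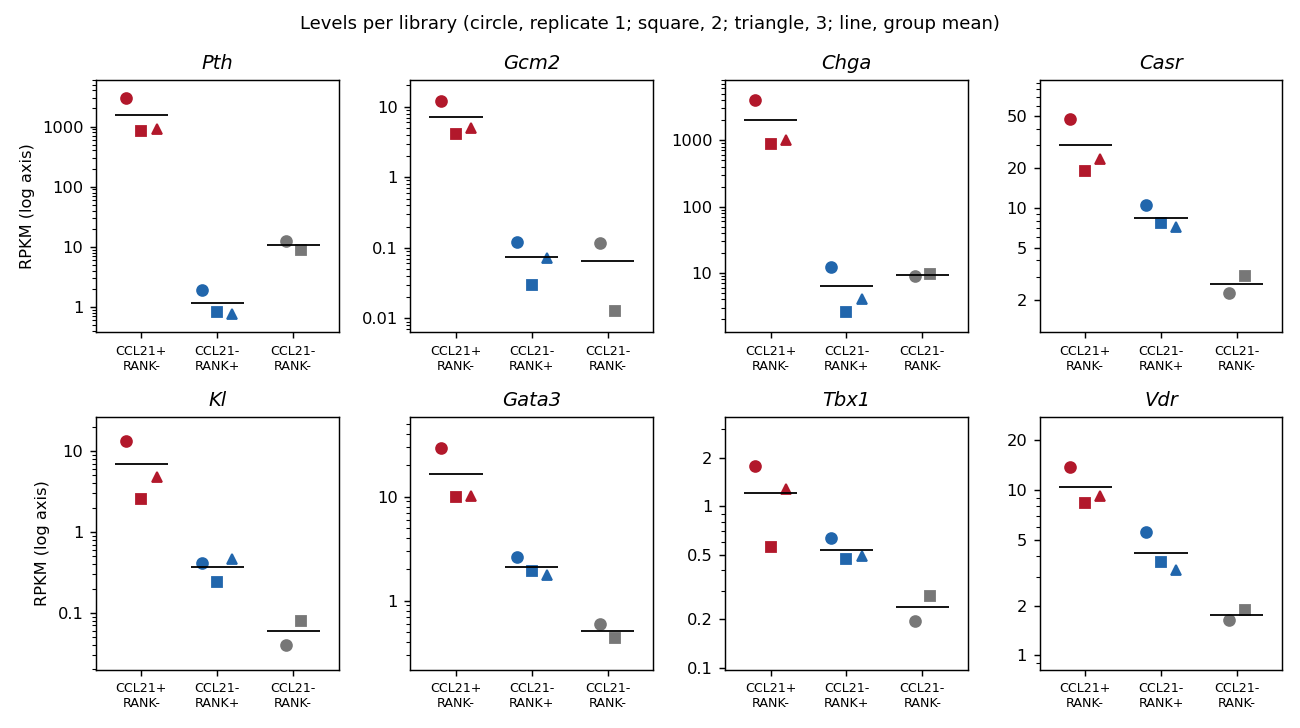
Level of each gene in RPKM (log axes, each panel with its own range) in the 8 libraries, by population, with a line at the group mean. CCL21+RANK- libraries were highest for every gene except that *Tbx1* in replicate 2 lay below CCL21-RANK+ replicate 1, and replicate 1 was the highest CCL21+RANK- library in all 8 panels.

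The receptor and co-receptor genes showed another order. *Casr* (chromosome 16, 36493696 to 36562141), the calcium-sensing receptor, was at 47.4, 19.1, and 23.7 RPKM in CCL21+ libraries. It was at 10.5, 7.67, and 7.13 RPKM in RANK+ libraries and at 2.26 and 3.02 RPKM in reporter-negative libraries. The 3 groups did not overlap, with RANK+ TECs in the middle. The log2 fold changes of CCL21+ TECs were 1.96 ± 0.30 over RANK+ and 3.52 ± 0.38 over reporter-negative TECs, and that of RANK+ over reporter-negative TECs was 1.56 ± 0.34 (SE). *Casr* thus stood at 0.0158 to 0.0261 times the level of *Pth* in CCL21+ libraries, but at 5.53 to 9.41 times in RANK+ libraries.

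*Kl* (chromosome 5, 150952607 to 150993817) encodes Klotho, the co-receptor that lets FGF receptors bind FGF23. It was at 13.1, 2.58, and 4.79 RPKM in CCL21+ libraries, 0.414, 0.239, and 0.464 in RANK+ libraries, and 0.0397 and 0.0793 in reporter-negative libraries. The groups did not overlap, and the fitted log2 fold changes of CCL21+ TECs were 4.32 ± 0.56 and 6.84 ± 0.79 over RANK+ and reporter-negative TECs. *Vdr* (chromosome 15, 97854425 to 97910630), the vitamin D receptor, was the least spread within CCL21+ TECs, at 13.8, 8.34, and 9.19 RPKM. It was at 5.58, 3.699, and 3.28 RPKM in RANK+ libraries and at 1.64 and 1.89 RPKM in reporter-negative libraries. Its groups did not overlap either, with log2 fold changes of 1.45 ± 0.22 and 2.57 ± 0.26.

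The transcription factors *Gata3* and *Tbx1* act in the pharyngeal pouches before the organs separate. *Gata3* (chromosome 2, 9857078 to 9890034) was at 29.2, 9.896, and 10.2 RPKM in CCL21+ libraries, 2.65, 1.95, and 1.76 in RANK+ libraries, and 0.593 and 0.432 in reporter-negative libraries. Its groups did not overlap, and its log2 fold changes were 3.08 ± 0.41 and 5.00 ± 0.55 over RANK+ and reporter-negative TECs. Genes that share exon bases with *Gata3* had 0 counts in every library. *Tbx1* (chromosome 16, 18580979 to 18590671) was the lowest of the set in CCL21+ TECs, at 1.79, 0.556, and 1.28 RPKM. It was at 0.635, 0.471, and 0.492 RPKM in RANK+ libraries and at 0.194 and 0.278 RPKM in reporter-negative libraries. Replicate 2 of CCL21+ TECs lay within the range of the RANK+ libraries, and the log2 fold changes of 1.29 ± 0.41 and 2.35 ± 0.50 over RANK+ and over reporter-negative TECs were the smallest among the 8 genes.

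For 7 of the 8 genes every CCL21+ library was above every RANK+ library, where 22.8% of all tested genes did the same. For 8 of 8 every CCL21+ library was above both reporter-negative libraries, against 18.4% of all tested genes. These contrasts chose the genes, and nothing is read from the counts. Between the other populations, every RANK+ library was above both reporter-negative libraries for *Casr*, *Kl*, *Gata3*, *Tbx1*, and *Vdr*, as for 38.8% of all tested genes. *Pth* was lower in RANK+ than in reporter-negative TECs, with a log2 fold change of -3.31 ± 0.61 (SE), and *Gcm2* and *Chga* overlapped there. *Ccl21a* itself had the order of *Casr*, *Kl*, *Gata3*, and *Vdr*, and its part in that order was not tested.

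**Figure D2:**
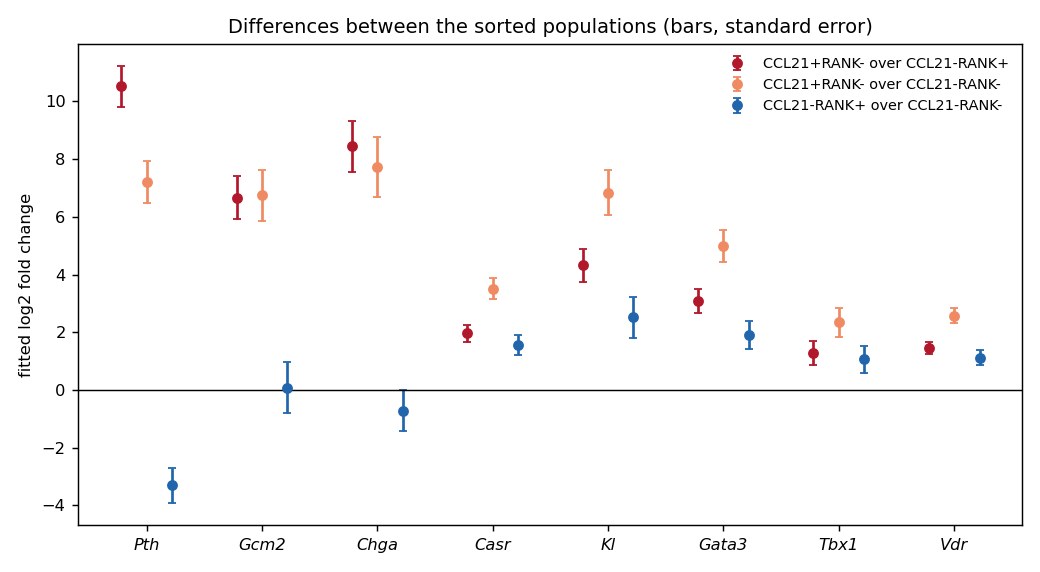
Fitted log2 fold change of each gene in the 3 comparisons (points), with its standard error (bars), from 8 libraries. *Pth*, *Gcm2*, and *Chga* had values near or below 0 for CCL21-RANK+ over CCL21-RANK- TECs, and *Casr*, *Kl*, *Gata3*, *Tbx1*, and *Vdr* had values between 1.06 and 2.52.

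The spread within the CCL21+ libraries is given as a description, since the genes were chosen on it too. After TMM scaling, replicate 1 was above the mean of replicates 2 and 3 by a factor of 4.29 for *Chga*, 3.64 for *Kl*, 3.42 for *Pth*, 2.89 for *Gata3*, 2.66 for *Gcm2*, 2.23 for *Casr*, 2.00 for *Tbx1*, and 1.58 for *Vdr*. Over the 13749 genes with at least 1 CPM on average in these libraries the median of this ratio was 1.01, and it was at least 1.5 in 8.58% of them, from which nothing is read about the 8 genes. The cortical TEC gene *Psmb11* and the TEC master regulator *Foxn1* went the other way, at 0.681 and 0.863, whereas *Ccl21a* was at 1.71 and *Epcam* at 1.58. In the RANK+ libraries replicate 1 was also above the mean of the others for *Chga* (3.47 times), *Gcm2* (2.23 times), and *Pth* (2.21 times), but the other genes of the set were between 1.09 and 1.47 times. Libraries with the same number need not come from the same embryos. Without CCL21+ replicate 1 the log2 fold changes over RANK+ TECs were 9.66 for *Pth*, 6.04 for *Gcm2*, 7.38 for *Chga*, 3.41 for *Kl*, and 2.38 for *Gata3*. Over reporter-negative TECs they were 6.36, 6.09, 6.66, 5.93, and 4.29 for the same genes without that library. Without RANK+ replicate 1, the log2 fold change of *Chga* was 9.31 over RANK+ TECs, and that of RANK+ over reporter-negative TECs was -1.58.

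**Figure D3:**
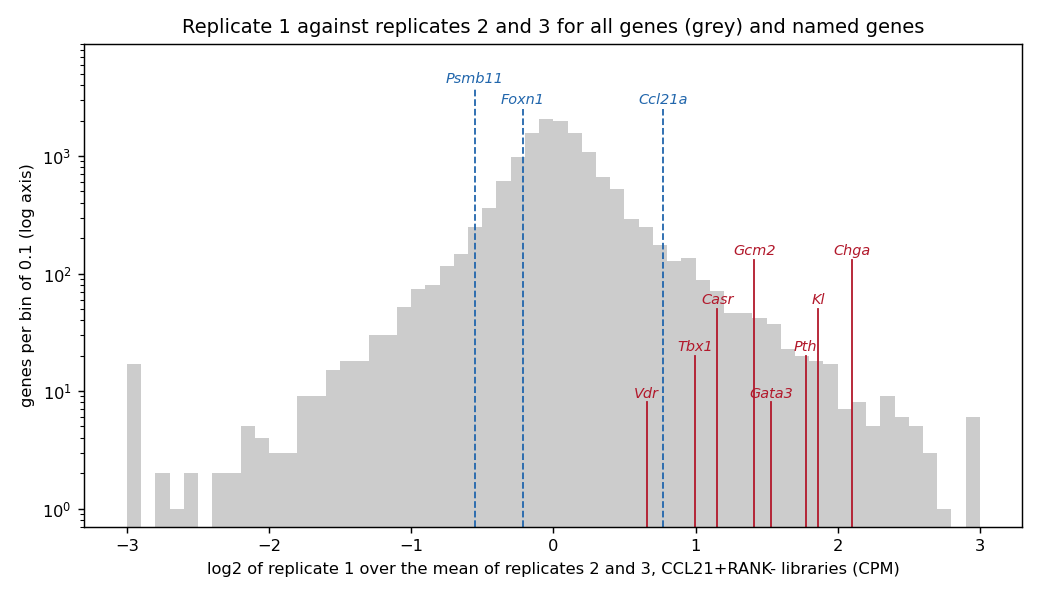
Number of genes (log axis) by the log2 ratio of CCL21+RANK- replicate 1 to the mean of replicates 2 and 3, with values beyond 3 in the outermost bins, and lines at the 8 genes (red) and at *Psmb11*, *Foxn1*, and *Ccl21a* (blue, dashed). The heights of the lines carry no value, and all 8 genes lay to the right of the peak at 0.

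The pattern of *Pth* was compared with that of 12387 other named genes with at least 1 CPM in CCL21+ TECs. One measure was the ratio of the lowest CCL21+ library to the highest other library in CPM after TMM scaling, which differs from the ratio of the RPKM values. By this ratio, the leading genes were *Chga* (87.6 times), *Pth* (64.6 times), and *Gcm2* (35.5 times), followed by *Sparcl1* (34.5 times), *Hoxa7* (23.9 times), *Pla2g7* (18.5 times), *Spink8* (17.1 times), *Fam20a* (13.0 times), *Pip5kl1* (10.5 times), and *Nell1* (7.82 times). *Sparcl1*, a secreted matrix protein, was at 133, 25.3, and 33.3 RPKM in CCL21+ libraries and at most at 0.909 RPKM elsewhere. *Hoxa7* had the opposite spread, at 1.54, 3.18, and 2.22 RPKM, lowest where *Pth* was highest. In this order *Kl* was number 12, *Gata3* number 22, *Casr* number 64, *Vdr* number 166, and *Tbx1* number 1047. The 8 genes were chosen on their levels across these same populations, so nothing is read from their places in this order. By Pearson's r of log2 CPM with *Pth* over the 8 libraries, the 10 leading genes were *St5*, *Oplah*, *Ubr4*, *Ptprm*, *Adamts3*, *Crim1*, *Sc5d*, *Lasp1*, *Clk3*, and *Osmr*, with r from 0.997 to 0.99. This list depended on the measure, and with Spearman's rho in place of Pearson's r the leading genes shared none with it. Among the 10 genes by Pearson's r, the ratio of the lowest CCL21+ library to the highest other library ran from 1.20 for *Clk3* to 3.46 for *Adamts3*. *St5* was at 83.2, 68.4, and 80.5 RPKM in CCL21+ libraries and at 47.3 to 55.1 RPKM elsewhere. The r of *Chga* with *Pth* was 0.978 and that of *Gcm2* 0.930, while *Kl*, *Gata3*, *Vdr*, *Casr*, and *Tbx1* had r from 0.672 to 0.776. These values describe 8 libraries in which population and library differences enter together.

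Other genes of the same pathways were then tested, as 129 genes in 7 lists without the 8 genes, of which 123 passed the filter. These lists were chosen with earlier results of these data known. Their counts are set beside the shares of all tested genes as a description, and nothing is read from them. The same shares stand beside the counts of each list below. Calls required an adjusted p below 0.05 (quasi-likelihood test of edgeR, Benjamini-Hochberg method over all tested genes), a change of more than 1.5-fold, and more than 1 RPKM on average where the gene was higher. Between CCL21+ and RANK+ TECs, 30 of the 123 rose in CCL21+ TECs and 24 rose in RANK+ TECs, against 15.4% and 15.4% of all tested genes. Over reporter-negative TECs, 12 rose in CCL21+ TECs and 2 fell, against 4.35% higher and 3.66% lower among all tested genes. Between RANK+ and reporter-negative TECs, 28 were higher in the former and 22 in the latter, against 14.4% and 15.1%. The median log2 fold changes of the 123 genes were -0.15, 0.08, and 0.93 in these comparisons, and those of all tested genes were -0.11, 0.00, and 0.06. All 3 comparisons share libraries. The count over reporter-negative TECs was the least stable, since it fell from 14 genes to 7 without CCL21+ replicate 1 and to 5 without either reporter-negative library.

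**Figure D4:**
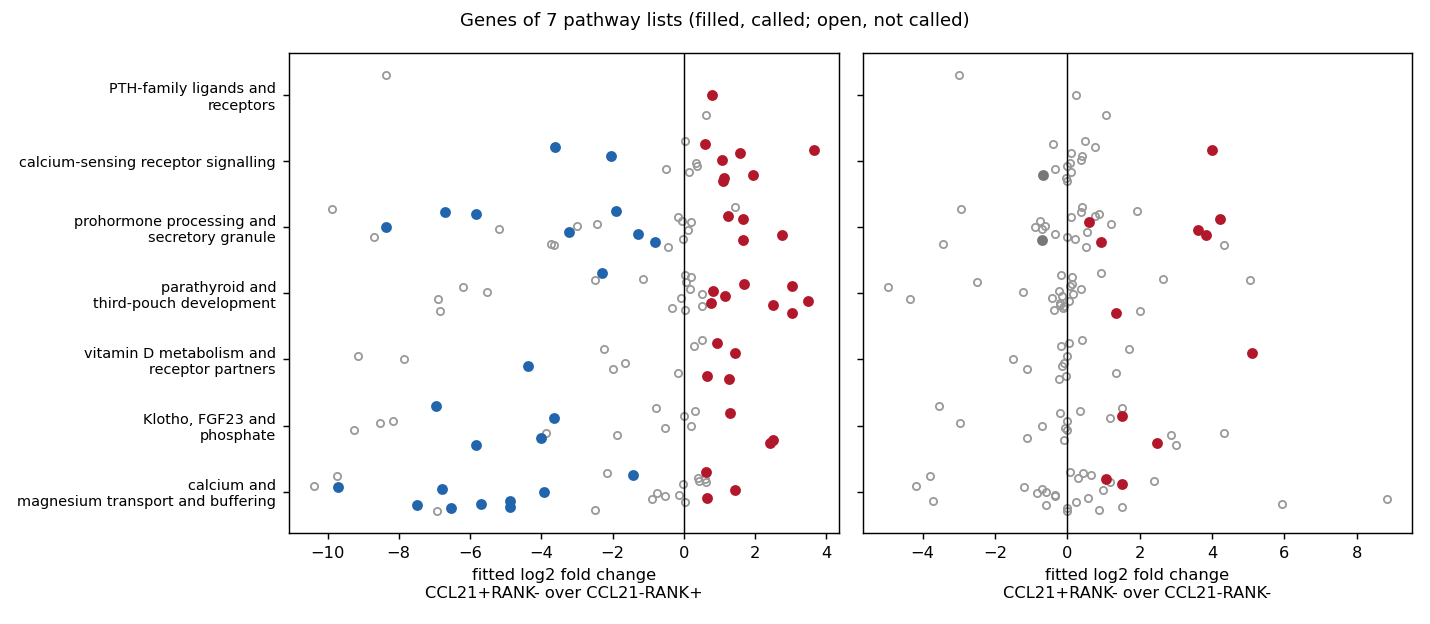
Fitted log2 fold change of each tested pathway gene by list, for CCL21+RANK- over CCL21-RANK+ TECs (left) and over CCL21-RANK- TECs (right). Filled points were called (red, higher in CCL21+RANK-; blue or grey, higher in the other population), and open points were not; many open points far to the left are genes with a mean RPKM of at most 1.

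Of the hormone's relatives and receptors, *Pth1r*, the main receptor of parathyroid hormone, was the only called gene. It was at 3.29 ± 0.546 RPKM (SD, n = 3) in CCL21+ and 2.06 ± 0.578 RPKM (SD, n = 3) in RANK+ TECs (log2 fold change 0.80, edgeR adjusted p = 0.00936), and the call was lost without RANK+ replicate 3. *Pthlh*, which encodes the related peptide PTHrP, was at 5.81, 3.02, and 3.54 RPKM in CCL21+ libraries and at 4.49, 2.27, and 2.01 RPKM in RANK+ libraries, which overlapped. *Pth2r*, a further receptor of the family, had 0 counts in CCL21+ libraries and 40, 27, and 46 in RANK+ libraries, at least 40.3-fold higher there (floor of 3 counts over the group; edgeR adjusted p = 0.00237), and was not called because its level was under 1 RPKM. *Pth2* had 0 counts in CCL21+ and reporter-negative libraries and did not pass the filter.

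Among 14 tested genes of calcium-sensing receptor signalling, 7 rose and 2 fell in CCL21+ against RANK+ TECs. *Plcb1*, a phospholipase C that acts below Gq proteins, was at 3.10, 0.972, and 0.849 RPKM in CCL21+ libraries, against at most 0.203 RPKM in any other library. Its log2 fold changes were 3.64 ± 0.58 and 4.01 ± 0.70 over RANK+ and reporter-negative TECs (edgeR adjusted p = 0.00057 and 0.0061). Like the 8 genes it was highest in replicate 1, by a factor of 3.38. Without that library its log2 fold changes were 2.80 and 3.17 (edgeR adjusted p = 0.000924 and 0.00771), and the calls were lost because its mean level was then under 1 RPKM. The call over reporter-negative TECs was also lost without either library of that group. The genes for the inhibitory G protein subunit *Gnai1*, the scaffold protein *Flna*, and the Gq class subunits *Gna11* and *Gnaq* were lower in RANK+ TECs than in both other populations. *Plcb2* and the arrestin gene *Arrb2* rose in RANK+ TECs, where *Arrb2* was at 16.4 ± 0.835 RPKM against 3.66 ± 0.793 RPKM in CCL21+ TECs (SD, n = 3 each; log2 fold change -2.05 ± 0.14, edgeR adjusted p = 2.6e-06). *Gnai1* was also the gene of this list that fell against reporter-negative TECs (log2 fold change -0.67, edgeR adjusted p = 0.0422), a call that was lost with a replicate block and without any 1 library of that comparison.

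The genes of prohormone processing and the secretory granule went both ways. Against RANK+ TECs, 4 of 25 rose in CCL21+ TECs and 7 fell, and against reporter-negative TECs 5 rose and *Pcsk6* alone fell. The *Pcsk6* call was lost with a replicate block and without any 1 of the 5 libraries, and that of *Vamp2*, among the 5 that rose, with the block and without CCL21+ replicate 1 or either reporter-negative library. The call of *Pcsk5*, also among the 5, was lost without either reporter-negative library, at log2 fold changes of 1.06 and 0.796. Of the 5, *Sytl4* and *Scg5* alone were called under every alternative that tested them. *Sytl4*, which encodes granuphilin, a protein that docks granules at the membrane, was at 2.27 ± 0.808 RPKM (SD, n = 3) in CCL21+ and 0.121 ± 0.00282 RPKM (SD, n = 2) in reporter-negative TECs, a log2 fold change of 4.21 ± 0.37 (edgeR adjusted p = 0.000211). *Cpe*, the carboxypeptidase that trims prohormones, was at 14.2, 3.54, and 1.77 RPKM in CCL21+ libraries, and its calls in both comparisons were lost without replicate 1, and that over reporter-negative TECs also without either library of that group. *Scg5*, a chaperone of a prohormone convertase, was higher than in reporter-negative TECs (log2 fold change 3.62 ± 0.54, edgeR adjusted p = 0.00275) but overlapped RANK+ TECs. The convertase genes *Pcsk1* and *Pcsk2* were at most at 0.435 RPKM in every library, while *Furin* and *Pcsk7*, which encode convertases of the constitutive pathway that can cleave the parathyroid prohormone, were at 15.6 ± 2.01 and 4.51 ± 0.535 RPKM (SD, n = 3 each) in CCL21+ TECs and were called in neither comparison of CCL21+ TECs.

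The granule genes that fell in CCL21+ TECs were led by *Vgf*, *Slc18a2*, *Slc18a1*, and *Scg2*. *Slc18a1* and *Slc18a2*, the vesicular monoamine transporters, were at 12.0 ± 0.878 and 1.52 ± 0.626 RPKM in RANK+ TECs and at 0.190 ± 0.115 and 0.0126 ± 0.00834 RPKM in CCL21+ TECs (SD, n = 3 each). *Vgf*, a granin of neuroendocrine cells, was at 9.92, 1.35, and 3.45 RPKM in RANK+ libraries and had 6 counts in all in the 3 CCL21+ libraries. *Chgb*, which encodes the granin most like chromogranin A, was at most at 0.0397 RPKM in CCL21+ libraries, where *Chga* was at 878 RPKM or more.

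In the list of parathyroid and third-pouch development, 8 of 24 genes rose in CCL21+ over RANK+ TECs and *Ccnd1* alone fell. The pouch genes *Hoxa3*, *Gli2*, and *Pax1* rose in CCL21+ TECs, at log2 fold changes of 3.49, 3.04, and 2.51, but their values against reporter-negative TECs were 0.04, 0.08, and -0.21. *Eya1*, which acts in the pouch upstream of both organs, was called in no comparison, and *Sox3* had 1 count in the CCL21+ libraries together.

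Among 13 genes of vitamin D metabolism and its receptor's partners, 4 rose in CCL21+ over RANK+ TECs and *Cyp27a1*, a vitamin D hydroxylase, fell. *Lrp2*, which encodes megalin, the receptor that takes up vitamin D with its binding protein, was at 6.19, 2.24, and 3.21 RPKM in CCL21+ libraries. *Lrp2* was at 1.79, 1.72, and 1.17 RPKM in RANK+ libraries and at 0.127 and 0.0986 RPKM in reporter-negative libraries, the same order as *Vdr*. The log2 fold changes of *Lrp2* were 1.43 ± 0.33 and 5.09 ± 0.47 (edgeR adjusted p = 0.00479 and 0.000249). *Rxra*, whose product pairs with the vitamin D receptor, did not share this order, at 29.9 ± 3.89, 13.5 ± 1.99, and 34.9 ± 2.11 RPKM in CCL21+ (SD, n = 3), RANK+ (SD, n = 3), and reporter-negative TECs (SD, n = 2). *Cyp27b1*, the enzyme that makes the active hormone, was at most at 0.137 RPKM in CCL21+ libraries. *Cyp24a1*, the enzyme that breaks it down and a known target of the receptor, had 1 count in these libraries together and 335 counts in RANK+ libraries.

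Of 17 FGF23 and phosphate genes, 3 rose and 4 fell in CCL21+ against RANK+ TECs. *Fgfr1*, which encodes an FGF receptor, was at 1.84, 0.643, and 0.698 RPKM in CCL21+ libraries and 0.357 RPKM or less elsewhere. Its log2 fold changes were 2.42 and 2.47 (edgeR adjusted p = 0.00288 and 0.0263). Without CCL21+ replicate 1 both calls were lost, at log2 fold changes of 1.76 and 1.81 (edgeR adjusted p = 0.00974 and 0.0643). The mean level of *Fgfr1* in CCL21+ TECs was then under 1 RPKM. Its call over reporter-negative TECs was also lost without either library of that group, at log2 fold changes of 2.41 and 2.53. Unlike *Kl*, *Fgfr1* overlapped between RANK+ and reporter-negative libraries. The receptor gene *Fgfr2* was more abundant, at 41.4 RPKM on average in CCL21+ and 7.91 RPKM in RANK+ TECs. It was called higher in CCL21+ than in RANK+ TECs (log2 fold change 2.495, edgeR adjusted p = 1.015e-05). Over reporter-negative TECs, at 44.5 RPKM on average, its log2 fold change was -0.0981. *Fgfr4* was lower in CCL21+ than in RANK+ TECs (log2 fold change -1.88) but was not called. Which of these receptors pairs with Klotho here was not tested. *Slc20a1*, a phosphate importer, rose over reporter-negative TECs (log2 fold change 1.51 ± 0.23, edgeR adjusted p = 0.00337). The ligand gene *Fgf23* was higher in RANK+ TECs, at 4.70, 1.41, and 1.56 RPKM, against 0.120 RPKM or less in all other libraries. *Alpl*, a phosphatase of mineralization, *Fgfr3*, an FGF receptor, and *Slc34a2*, a phosphate transporter, were higher there too, with log2 fold changes of -6.96, -4.02, and -3.65 for CCL21+ over RANK+ TECs. Without RANK+ replicate 1 the log2 fold change of *Fgfr3* was -3.55 (edgeR adjusted p = 3.34e-05). Its call was lost there because its mean level was then under 1 RPKM.

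Genes of calcium transport and buffering included 9 of 27 that were higher in RANK+ TECs and 3 that were higher in CCL21+ TECs. Of these 3, *Atp2b4* and *Trpm7* were lost with DESeq2 size factors or upper-quartile scaling, which leaves *Stc2*. The lost genes fell under the 1.5-fold limit, while their edgeR adjusted p stayed below 0.05. The log2 fold change of *Atp2b4* went from 0.660 to 0.561 and 0.574 with these scalings, and that of *Trpm7* from 0.632 to 0.547 and 0.555. *Calcb* and *Calca*, which encode the calcitonin gene-related peptides and, for *Calca*, calcitonin, the hormone that opposes parathyroid hormone, were at 94.9 ± 30.8 and 14.4 ± 11.9 RPKM in RANK+ TECs and at 0.0988 ± 0.0890 and 0.117 ± 0.0250 RPKM in CCL21+ TECs (SD, n = 3 each). Their log2 fold changes of CCL21+ over RANK+ TECs were -9.70 ± 0.65 and -6.78 ± 0.61 (edgeR adjusted p = 2.5e-06 and 1.4e-05). The calcium-binding proteins *S100g*, *Calb1*, and *Pvalb* showed the same direction, and *Pvalb* was at least 372-fold higher in RANK+ than in reporter-negative TECs, where it had 0 counts (floor of 3 counts over the group). *Stc2*, a stanniocalcin, was at 15.96, 9.06, and 13.3 RPKM against 7.93, 4.18, and 3.41 RPKM in RANK+ libraries. Its relative *Stc1* went the other way, with a log2 fold change of -3.92. *Calcrl*, which encodes a receptor for the calcitonin gene-related peptides, was higher in CCL21+ and in RANK+ TECs than in reporter-negative TECs, by log2 fold changes of 1.499 and 1.51 (edgeR adjusted p = 0.00134 and 0.000154).

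**Figure D5:**
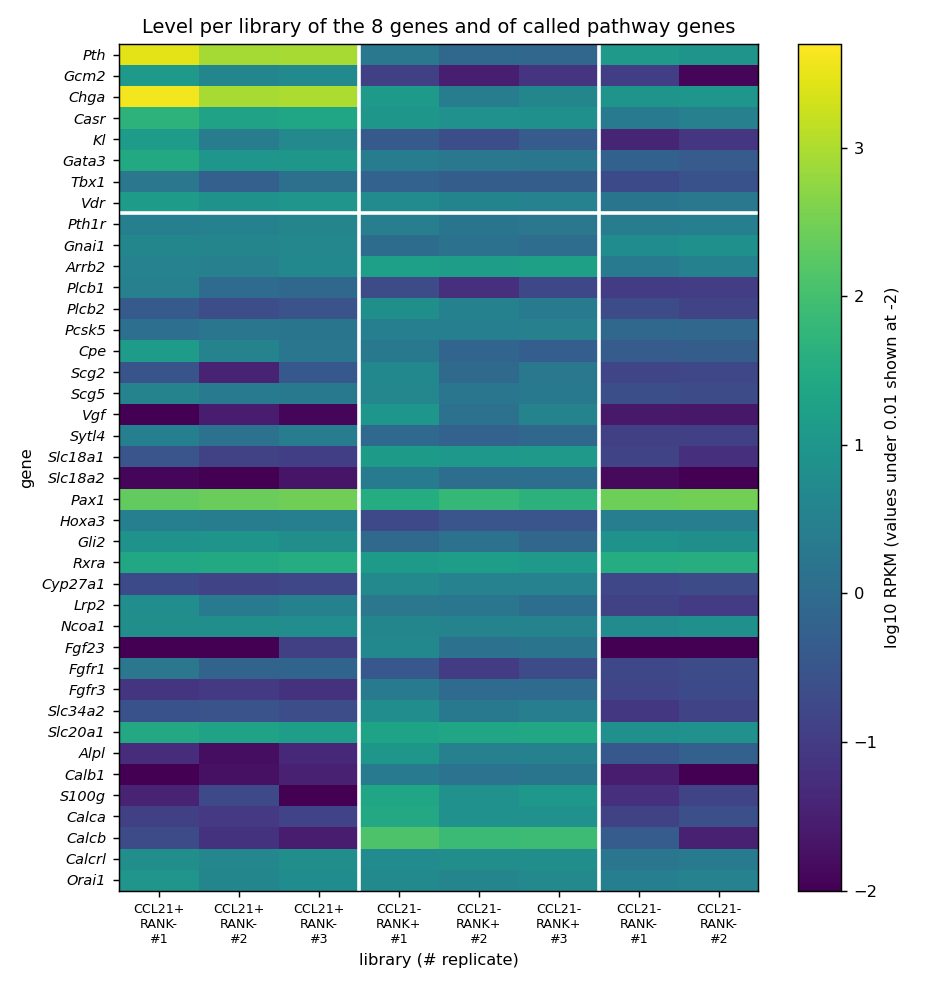
Level per library (colour, log10 RPKM) of the 8 genes (above the white line) and of the called genes of each pathway list with the largest fold changes of CCL21+RANK- TECs over either other population. *Pth* and *Chga* were the brightest genes in the 3 CCL21+RANK- libraries, and *Calcb* was brightest in the CCL21-RANK+ libraries.

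Markers of other cells were read beside these results. The 10 blood markers summed to 12.8, 60.6, and 23.0 RPKM in CCL21+ libraries. On average *Hba-a1*, a haemoglobin gene, was the most abundant of them, though *Rag1* was above it in replicate 1. *Ptprc*, which encodes CD45, was at most at 0.193 RPKM in CCL21+ libraries. The lymphocyte genes of the list did not follow *Hba-a1*, as 7 of the 10 markers (*Ptprc*, *Cd3e*, *Cd3g*, *Cd4*, *Cd8a*, *Lck*, and *Rag1*) were highest in replicate 1, where *Pth* was highest too. *Rag1* was at 5.12, 1.38, and 2.66 RPKM, and *Hba-a1* at 2.47, 56.5, and 17.1 RPKM. The part of these cells in the values of the 8 genes was not tested. The 7 mesenchyme and 5 endothelium markers summed to at most 2.91 and 0.467 RPKM there. Of the 7 thyroid follicular markers, *Pax8* and *Nkx2-1* had 0 counts in the 3 CCL21+ libraries, and the list summed to 6.29, 9.81, and 10.2 RPKM, lowest in the library where *Pth* was highest, with *Slc5a5* as the most abundant gene. The 8 TEC markers summed to 3346, 3032, and 3202 RPKM in the same libraries. The markers listed for parathyroid chief cells, *Pth*, *Gcm2*, *Chga*, and *Casr*, are all among the 8 genes. They give no independent check, so a contribution of such cells to the sort was not tested.

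Several marker lists summed higher in RANK+ than in CCL21+ TECs, as the calcitonin and calcium-binding genes were higher. The mesenchyme markers, with *Col1a1* as the most abundant, summed to 52.7, 27.2, and 33.0 RPKM in RANK+ libraries, and 5 of 7 were called higher there than in CCL21+ TECs. The endothelium markers summed to 4.20, 2.35, and 1.90 RPKM with 1 of 5 called, and the blood markers to 77.2, 106, and 114 RPKM with 2 of 10 called. Among all tested genes 15.4% were called higher in RANK+ than in CCL21+ TECs, so nothing is read from these 2 counts. The most abundant blood marker, *Hba-a1*, was not called, and the blood markers summed to 145 and 19.1 RPKM in the reporter-negative libraries. The 6 thyroid C cell markers, which include *Calca* and *Calcb*, summed to 273, 188, and 208 RPKM in RANK+ libraries and to 10.7, 8.31, and 8.99 RPKM in CCL21+ libraries, and 5 of 6 were called. Within CCL21+ TECs the sum was highest in replicate 1, as *Pth* was. The sixth, *Nkx2-1*, was at most at 0.280 RPKM in the RANK+ libraries. The 10 enteroendocrine markers summed to 194, 201, and 223 RPKM against 10.6, 10.5, and 12.1 RPKM, with *Insm1*, at 195 RPKM on average, as nearly all of the sum in RANK+ TECs. Of these 10 markers, 3 were called higher in RANK+ TECs and *Isl1* was called higher in CCL21+ TECs. *Aire*, which encodes a regulator of tissue-restricted genes in medullary TECs, was at 131, 94.1, and 114 RPKM in RANK+ libraries and at most at 0.810 RPKM in any other library. The part of these in the higher levels of the calcium genes was not tested.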

How the data were processed

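RNA-sequencing of sorted E17 TECs was analysed in 8 libraries. The deposited table holds expected counts from RSEM 1.3.1, which divides reads that match several genes, after bcl2fastq 2.20, Trimmomatic, and STAR 2.5.1 on mm10 per the labels. The study's methods name CLC Genomics Workbench and a TruSeq stranded kit, whereas the labels name a NEBNext directional kit, and whether counting used strand is not given in the sources used here. Values were rounded, since 4.47% to 5.94% in a library had a fractional part. The noncoding genes *Gm26917* and *Gm42418* took 6.89% to 19.4% and 1.47% to 10.7% of each library, which lowers the RPKM of other genes. RPKM used the library total and the summed exon length of GENCODE M21, which matched all 55450 identifiers.

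The members and lists were chosen with earlier results of these data known. Counts were fitted in edgeR 4.0.16 (R 4.3.3) with TMM, the default filter, and the quasi-likelihood test on 3 group means, and calls used the thresholds of the study. Standard errors came from the quasi-likelihood F. The genes named were the 8 members, up to 4 called genes per list and comparison with the largest change, genes of a list with a role the text explains, and the 10 genes most like *Pth* by each measure, without predicted genes; some genes of the lists are not reported here. The fit was tested on simulated data. No library pair within a group was a duplicate, with a chi-square of 77.3 to 275 a gene. The labels do not say that libraries are from separate animals, so p-values measure only the spread between these samples. The alternatives were DESeq2 1.42.0 (size factors and Wald test), upper-quartile scaling, other filters, a fit on the compared groups alone, a replicate block, adjusted p alone, totals without *Gm26917* and *Gm42418*, other measures of likeness, and leaving out each library. Figures were drawn with matplotlib 3.10.9.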

Additional observations from a re-analysis of the deposited data

How the results depend on the processing

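The 8 genes were chosen on these same libraries, so the signs of their changes are a description and nothing is read from them. The log2 fold changes of the 8 genes over RANK+ and over reporter-negative TECs were above 0 under every alternative that tested them, and *Gcm2* was not tested with at least 10 counts in every library. That of *Gcm2* between RANK+ and reporter-negative TECs ran from -0.83 to 2.44 when a library was left out, at 3 to 26 counts per library. Of the called pathway genes, 42 of 54, 5 of 14, and 43 of 50 were called under every alternative that tested them for CCL21+ over RANK+, CCL21+ over reporter-negative, and RANK+ over reporter-negative TECs. With adjusted p alone, which drops the fold and RPKM limits, the counts were 88, 22, and 86, with 50 higher in RANK+ TECs in the first, 6 higher in reporter-negative TECs in the second, and 59 higher in RANK+ TECs in the third. With at least 10 counts in every library compared, which tests fewer genes, 15 genes were higher in RANK+ than in CCL21+ TECs. Leaving out one library gave 5 to 13 pathway genes called over reporter-negative TECs, 5 to 13 of them higher in CCL21+ TECs and 0 to 0 lower. Where that left 1 reporter-negative library, it was assumed to vary like the other groups. Scaling by DESeq2 size factors or by the upper quartile moved the median log2 fold change of all genes by 0.14 and 0.12 for RANK+ over reporter-negative TECs.

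The libraries of the groups carry the same replicate numbers, but the deviations of same-numbered CCL21+ and RANK+ libraries correlated at 0.126, 0.0485, and 0.0707, so the numbers were not taken to pair them, although each of these libraries correlated best with its own number in the other group. With the replicate number as a block, 56, 15, and 51 pathway genes were called, and 1 was higher in reporter-negative than in CCL21+ TECs. Of the 10 genes most like *Pth*, 0 were shared with Spearman's rho in place of Pearson's r, and 5 to 8 when a library was left out.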
